A study of Homo sapiens with 9 samples.

Results

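The 36 genes described here encode the enzymes of glycolysis, the enzymes that decide the fate of pyruvate, the hypoxia-inducible factor (HIF) alpha subunits with their prolyl hydroxylases, and genes that HIF is known to induce. They were chosen by name. All 36 were found among the 58920 genes listed in each count table, and all 36 were among the 19102 genes tested, which had 10 or more counts when the 9 libraries were summed. The RNA came from LIM1215, a human colorectal cancer cell line. LIM1215-R1 and LIM1215-R2 were selected separately under rising concentrations of cetuximab, an antibody that blocks the EGF receptor, and LIM1215-parental was cultured in parallel without it. All lines were harvested as untreated basal cultures. LIM1215-R1 and LIM1215-R2 are mixed populations and not single clones, and each line was sequenced in 3 libraries. These are described as technical replicates, so the tests measure the spread between the libraries made, and effects of culture or harvest cannot be told apart from those of the line.

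Glycolysis splits glucose into pyruvate. A preparatory phase spends ATP to phosphorylate and cleave the sugar, and a payoff phase regains ATP and NADH. Pyruvate is then reduced to lactate or passed to the mitochondria. When oxygen is low, the prolyl hydroxylases no longer mark the HIF alpha subunits for destruction, and HIF raises the transcription of many glycolytic enzymes and of genes for blood vessel growth, pH control and mitophagy. Colorectal tumours are known for a high use of glucose.

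Library totals lay between 13737416 and 18725014 counts, and the log2 levels of 2 libraries correlated at 0.990 to 0.992 within a line and at 0.971 to 0.987 between lines (Pearson's r across genes, a description). Of 12 markers of colorectal epithelium, 11 reached 1 CPM (counts scaled to the size of the library) in every library and KRT20 was at 0. They summed to 13300 to 13700 CPM in the parental libraries, to 17200 to 17500 in those of LIM1215-R1 and to 15600 to 16000 in those of LIM1215-R2. The 10 proliferation markers summed to 2560 to 2630, 2720 to 2880 and 2750 to 2850 CPM. Both sums were lowest in LIM1215-parental, and their part in the results was not tested. KRT8 and KRT18 were the largest parts of the epithelial sum (parental means 5716 and 4131 CPM). By the rule given below, 5 of the 11 epithelial markers tested were higher and 5 lower in each resistant line. Their median log2 fold changes were -0.14 and -0.12. Of the 10 proliferation markers, 4 were higher and 1 lower in each line, with medians of 0.13 and -0.008. Markers of fibroblasts summed to at most 3.19 CPM (COL1A2 at 0), those of endothelium to at most 0.722 CPM (KDR at 0) and those of leukocytes to at most 14.6 CPM (PTPRC and CD3E at 0).

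A gene was called changed at an adjusted p of at most 0.01 in edgeR's quasi-likelihood test, and was a differentially expressed gene (DEG) if its log2 fold change was also at least 1.5 in size. In LIM1215-R1, 23 of the 36 genes were called against parental, 18 higher and 5 lower, beside 27.3% of all genes tested (14% higher and 13.4% lower). The median log2 fold change of the 36 was 0.30, and that of all genes tested -0.01. In LIM1215-R2, 20 were called, 15 higher and 5 lower, beside 23.8% of all genes (12.3% higher and 11.6% lower), with medians of 0.17 and -0.004. These are 63.9% and 55.6% of the 36 genes. The share of all genes depends on the count filter and was larger among well counted genes. With at least 10 counts in every library, 4505 of 12180 genes were called in LIM1215-R1 and 3900 in LIM1215-R2. Since the same 3 parental libraries stand in both comparisons, the counts are given side by side and not as independent support. The DEGs in LIM1215-R1 were HK1, EPAS1 and EGLN3, which were higher, and CA12, which was lower. They made up 11.1% of the 36 genes (8.33% higher and 2.78% lower). The share of all genes was 5.14% (3.24% higher and 1.91% lower). In LIM1215-R2, EGLN3 was higher and CA12 lower, which made up 5.56% of the 36 genes. The share of all genes there was 4.82% (2.63% higher and 2.19% lower). Without parental replicate 3, EGLN3 (log2 fold change 1.40) was no DEG in LIM1215-R2 and CA12 was the 1 left. Without parental replicate 1, EPAS1 passed the limit there too, which made 3.

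**Figure D1:**
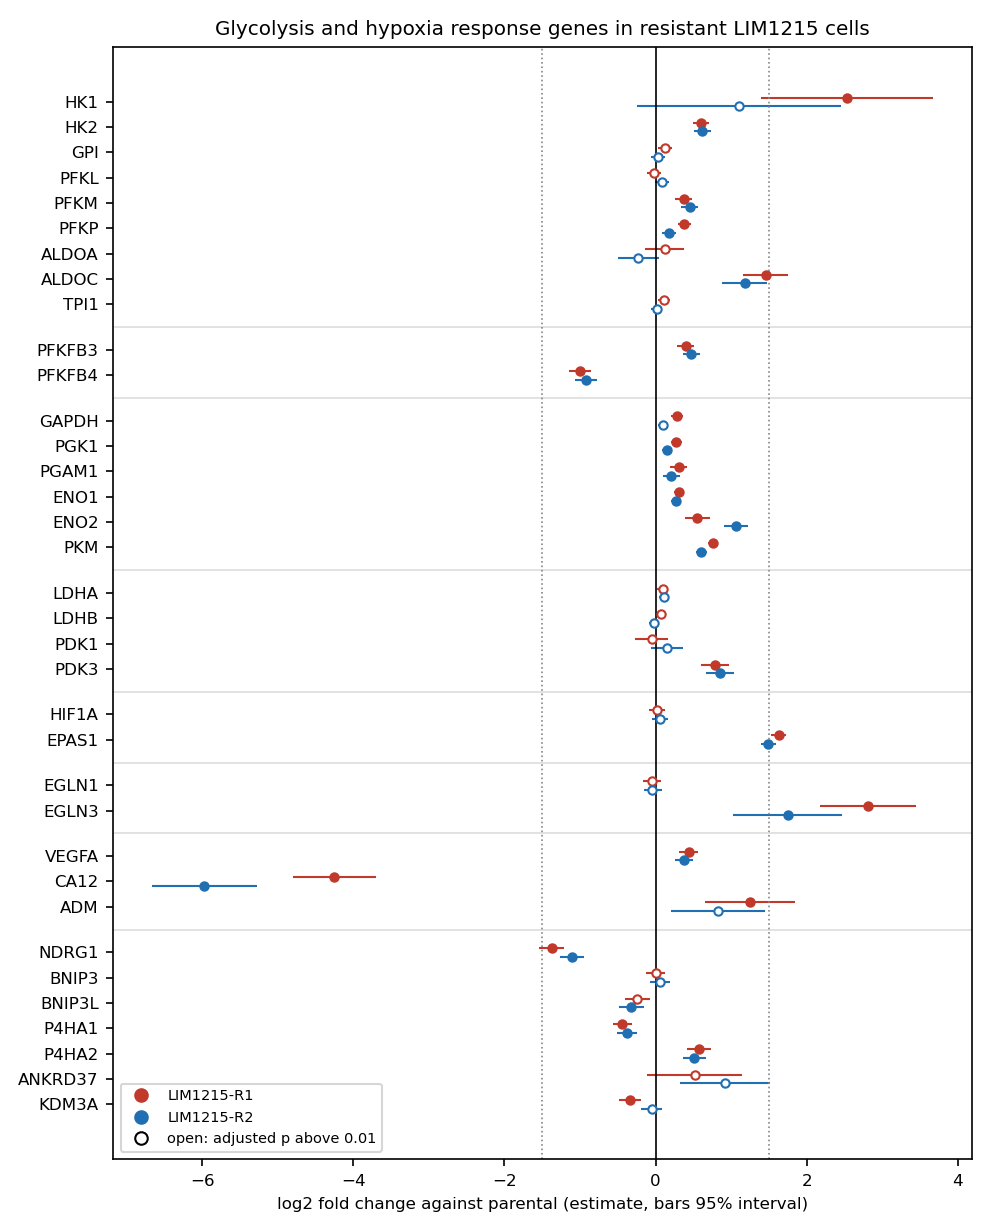
Log2 fold change against LIM1215-parental (x axis) of 35 of the genes, in blocks by role, for LIM1215-R1 (red) and LIM1215-R2 (blue), with bars for the 95% interval, open symbols for genes not called, and dotted lines at the DEG limit. CA9 is left out since it had no parental count. Most glycolytic enzymes lie between 0 and 1, and CA12 lies far to the left at -4.25 and -5.97.

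HIF binds DNA at a short core of the letters ACGTG or GCGTG. The RefSeq table for GRCh38.p14 gives 1 start site per gene, and the 250 bases before that site were available for 33 of the 36 genes. For 10 of the 33 the window overlaps the span of the gene itself, as the start site given is not the outermost one, and this holds for PFKFB4 among those printed. On either strand, 23 of these 33 (69.7%) held a core, compared with 54.9% of 12577 promoters of genes tested and 43.1% of all 27305 promoters. The match of 5 letters is a description of these windows and not a binding site. Promoters are printed for a pair of genes that rose in both resistant lines (EPAS1 and ALDOC) and a pair that fell in both (PFKFB4 and CA12). A pair of well known HIF targets that the edgeR test called in neither (LDHA and BNIP3) is also printed. LDHA passed the threshold under some alternatives given below. Cores are in capitals, and CACGTG holds one on each strand. The windows are chr2:46297157-46297406 (plus strand) for EPAS1, chr17:28576896-28577145 (minus) for ALDOC, chr3:48556804-48557053 (minus) for PFKFB4, chr15:63381847-63382096 (minus) for CA12, chr11:18394313-18394562 (plus) for LDHA and chr10:131981924-131982173 (minus) for BNIP3, each written 5′ to 3′ on the strand of the gene.
EPAS1: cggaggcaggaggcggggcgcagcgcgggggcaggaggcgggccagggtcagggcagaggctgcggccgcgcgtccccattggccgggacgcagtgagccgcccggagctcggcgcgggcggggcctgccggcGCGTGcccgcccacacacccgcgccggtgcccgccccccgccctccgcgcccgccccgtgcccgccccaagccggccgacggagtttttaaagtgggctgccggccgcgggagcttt
ALDOC: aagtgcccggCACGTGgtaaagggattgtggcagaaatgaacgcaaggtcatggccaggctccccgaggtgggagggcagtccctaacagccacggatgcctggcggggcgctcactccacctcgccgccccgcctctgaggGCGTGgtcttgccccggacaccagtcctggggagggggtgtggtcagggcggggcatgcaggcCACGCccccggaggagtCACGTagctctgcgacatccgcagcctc
PFKFB4: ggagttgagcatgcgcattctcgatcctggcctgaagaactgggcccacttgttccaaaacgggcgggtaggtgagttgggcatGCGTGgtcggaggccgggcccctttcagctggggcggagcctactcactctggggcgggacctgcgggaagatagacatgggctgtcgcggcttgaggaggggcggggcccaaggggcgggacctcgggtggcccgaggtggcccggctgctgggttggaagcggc
CA12: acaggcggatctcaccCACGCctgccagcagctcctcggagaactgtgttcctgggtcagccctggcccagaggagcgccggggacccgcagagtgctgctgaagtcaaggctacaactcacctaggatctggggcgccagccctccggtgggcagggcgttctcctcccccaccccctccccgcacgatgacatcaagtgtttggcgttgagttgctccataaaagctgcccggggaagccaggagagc
LDHA: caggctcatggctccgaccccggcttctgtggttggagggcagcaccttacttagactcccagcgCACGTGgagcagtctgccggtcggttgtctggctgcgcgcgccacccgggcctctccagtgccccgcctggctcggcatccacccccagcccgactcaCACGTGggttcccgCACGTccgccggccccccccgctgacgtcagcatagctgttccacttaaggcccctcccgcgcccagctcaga
BNIP3: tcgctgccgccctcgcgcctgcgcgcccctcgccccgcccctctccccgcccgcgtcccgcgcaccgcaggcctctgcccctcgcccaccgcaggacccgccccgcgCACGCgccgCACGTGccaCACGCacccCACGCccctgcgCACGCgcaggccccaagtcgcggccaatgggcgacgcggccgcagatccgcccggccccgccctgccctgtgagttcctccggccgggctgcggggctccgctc
LDHA held 3 separate cores and BNIP3 held 5, while EPAS1, PFKFB4 and CA12 held 1 each and ALDOC held 4. The EGLN3 window held none. Of the 33 windows, 24.2% held 2 or more separate cores and 15.2% held 3 or more. Among promoters of genes tested these shares were 23.6% and 8.29%. Whether the cores bear on the changes was not tested.

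Of the 15 glycolytic enzymes, 11 rose and none fell in LIM1215-R1, and 9 rose and none fell in LIM1215-R2. Their median log2 fold changes were 0.31 and 0.21. Of all genes tested, 14% were higher and 13.4% lower in LIM1215-R1, and 12.3% and 11.6% in LIM1215-R2. The counts by role below are to be read beside these shares, which were larger among well counted genes, as given above. The summed level of the 15 enzymes was 8639, 9193 and 8489 CPM in the parental libraries. It was 10700, 11597 and 11045 CPM in LIM1215-R1, and 9992, 10148 and 10397 CPM in LIM1215-R2. In this sum, every resistant library thus lay above every parental one, and every LIM1215-R1 library above every LIM1215-R2 one. GAPDH, ENO1 and PKM were its largest parts, with parental means of 3816, 1552 and 1151 CPM. The mean of GAPDH alone was 4657 for LIM1215-R1 against 4087 for LIM1215-R2. The order of the sums therefore describes mainly these abundant genes and not each of the 15 enzymes. The statement that none fell changes for PFKL alone: once the trends of counts with GC content and length were taken out, PFKL was lower in LIM1215-R1 (log2 fold change -0.24, adjusted p = 7.49e-08).

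In the preparatory phase, 5 of 9 enzymes rose in LIM1215-R1 and 4 in LIM1215-R2. HK2, the inducible hexokinase that phosphorylates glucose, was at 95.5, 92.7 and 87.0 CPM in LIM1215-parental, 144.5, 138 and 136 CPM in LIM1215-R1 and 151, 135.5 and 136 CPM in LIM1215-R2. It was higher in all 6 resistant libraries, by 0.61 ± 0.055 (log2, SE; adjusted p = 7.94e-10) and 0.62 ± 0.055 (adjusted p = 5.18e-10). HK1, the hexokinase of most tissues, was close to the detection floor, with 7 parental, 41 LIM1215-R1 and 15 LIM1215-R2 counts. The ratio of LIM1215-R1 to parental CPM was 6.05 with a 95% counting interval of 2.69 to 16.0 (adjusted p = 0.000931), and that of LIM1215-R2 was 2.21 with an interval of 0.849 to 6.41 (adjusted p = 0.251). Per kilobase of transcript, HK2 made up at least 98.95% of the reads of the pair in every library.

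The 3 phosphofructokinase subunits, which form the main control step of glycolysis, did not move alike. PFKM, the muscle subunit, was at 77.2 to 82.0 CPM in LIM1215-parental, 98.0 to 109 in LIM1215-R1 and 107 to 113 in LIM1215-R2, and rose in both lines (log2 fold change 0.37 and 0.45). PFKP, the platelet subunit, was at 142, 148 and 143.5 CPM, then 186, 193 and 183 CPM, then 164 CPM in each LIM1215-R2 library. It rose by 0.38 ± 0.046 (adjusted p = 1.77e-07) and 0.18 ± 0.046 (adjusted p = 0.00261), and the second call was lost when any of parental replicates 1 and 3 or LIM1215-R2 replicates 1 and 2 was left out (adjusted p up to 0.018) or in the fit corrected for GC content and length (0.0158). PFKL, the liver subunit, overlapped between the lines at 210 to 241 CPM. Its share of the reads per kilobase of the 3 subunits was 48.5% ± 0.99 (SD, n = 3) in the parental libraries, 41.7% ± 1.0 in LIM1215-R1 and 45.2% ± 0.72 in LIM1215-R2.

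ALDOC, an aldolase best known from brain, rose most among the well covered preparatory enzymes. It was at 3.19, 3.83 and 3.15 CPM in LIM1215-parental, 9.08, 9.35 and 9.26 CPM in LIM1215-R1 and 7.85, 6.38 and 8.69 CPM in LIM1215-R2, with no overlap between parental and resistant libraries. The log2 fold changes were 1.46 ± 0.15 (adjusted p = 6.6e-09) and 1.18 ± 0.15 (adjusted p = 4.15e-07). ALDOA, the aldolase of most tissues, had only 2289 counts in the 9 libraries. Nearly its whole length (chr16:30064279-30070420) is overlapped by the locus LOC112694756, for which the table used gives ALDOA as a synonym but no strand. Reads that fit both may have been left uncounted, which was not tested, and its level is therefore uncertain. As counted, it was at 11.6 to 19.7 CPM and was called in neither line. GPI, which interconverts the hexose phosphates, and TPI1, which interconverts the triose phosphates, were not called either, at 0.13 and 0.11 on the log2 scale in LIM1215-R1 and at 0.03 and 0.01 in LIM1215-R2. Both were called in LIM1215-R1 when parental replicate 2 was left out, with adjusted p of 0.00222 and 0.00672. They were also called there under blocking by replicate (adjusted p = 0.0079 and 0.00792), and TPI1 without LIM1215-R1 replicate 1 (0.0092).

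PFKFB3 and PFKFB4 make and break fructose 2,6-bisphosphate, the activator of phosphofructokinase, and moved in opposite directions. PFKFB3 was at 47.5, 49.6 and 47.0 CPM in LIM1215-parental, 62.3, 63.9 and 63.4 CPM in LIM1215-R1 and 68.5, 65.5 and 66.2 CPM in LIM1215-R2. PFKFB4 was at 36.8, 39.5 and 36.5 CPM, then 18.2, 18.4 and 19.6 CPM, then 19.1, 19.4 and 21.0 CPM. The ranges of resistant and parental libraries did not overlap for either gene. PFKFB3 rose by 0.40 ± 0.058 and 0.48 ± 0.058 on the log2 scale (adjusted p = 3.24e-06 and 1.63e-07), and PFKFB4 fell by 1.00 ± 0.077 and 0.92 ± 0.077 (adjusted p = 3.13e-11 and 1.43e-10). As shares of the reads per kilobase of the pair, PFKFB3 went from 50% ± 0.40 (SD, n = 3) in LIM1215-parental to 72.5% ± 0.75 in LIM1215-R1 and 72.4% ± 1.3 in LIM1215-R2. PFKFB2, another enzyme of this kind outside the 36 genes and named here after its values were seen, was counted more than either, at means of 121, 156 and 140.3 CPM, and rose by 0.37 and 0.22 (adjusted p = 6.82e-07 and 0.000878).

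All 6 payoff enzymes rose in LIM1215-R1, and all but GAPDH in LIM1215-R2. PKM, the pyruvate kinase that makes pyruvate and ATP, moved the furthest among the abundant ones. It was at 1129, 1213 and 1112 CPM in LIM1215-parental, 1879, 2003 and 1966 CPM in LIM1215-R1 and 1730, 1728 and 1793 CPM in LIM1215-R2, so that the 3 lines did not overlap. It rose by 0.76 ± 0.037 (adjusted p = 2.17e-15) and 0.61 ± 0.037 (adjusted p = 2.66e-13). Gene counts do not separate its M1 and M2 splice forms.

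ENO1, the main enolase, was at 1505 to 1611 CPM in LIM1215-parental, 1858 to 1983 in LIM1215-R1 and 1843 to 1909 in LIM1215-R2, with log2 fold changes of 0.31 and 0.27. ENO2, the enolase of neurons, was much lower but moved further, at 18.2, 18.3 and 19.7 CPM, then 26.2, 30.4 and 26.1 CPM, then 38.6, 38.3 and 40.9 CPM. It rose by 0.55 ± 0.082 (adjusted p = 4.26e-06) and 1.07 ± 0.080 (adjusted p = 1.63e-11), while remaining 1.6% ± 0.037 of the summed ENO1 and ENO2 reads per kilobase in LIM1215-R2. GAPDH, which makes the NADH of the pathway, was at 3675 to 4024 CPM in LIM1215-parental, 4456 to 4929 in LIM1215-R1 and 3967 to 4214 in LIM1215-R2, where the range overlapped with parental. It rose in LIM1215-R1 (0.29, adjusted p = 4.78e-07) and was not called in LIM1215-R2 (0.10, adjusted p = 0.0419), although it was without parental replicate 2 (adjusted p = 0.00312). GAPDH was also called in LIM1215-R2 under blocking by replicate (adjusted p = 0.00383). The same held in the fit corrected for GC content and length (0.00515) and with no filter on low counts (0.00844). PGK1 and PGAM1, the kinase and mutase between GAPDH and enolase, rose by 0.27 and 0.31 in LIM1215-R1 and by 0.15 and 0.21 in LIM1215-R2. Each of the last pair of calls was lost in 3 of the 9 fits that left out a library, for PGK1 without parental replicates 1 or 3 or LIM1215-R2 replicate 2 (adjusted p up to 0.019), and for PGAM1 without parental replicate 1 or LIM1215-R2 replicates 2 or 3 (adjusted p up to 0.0367).

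**Figure D2:**
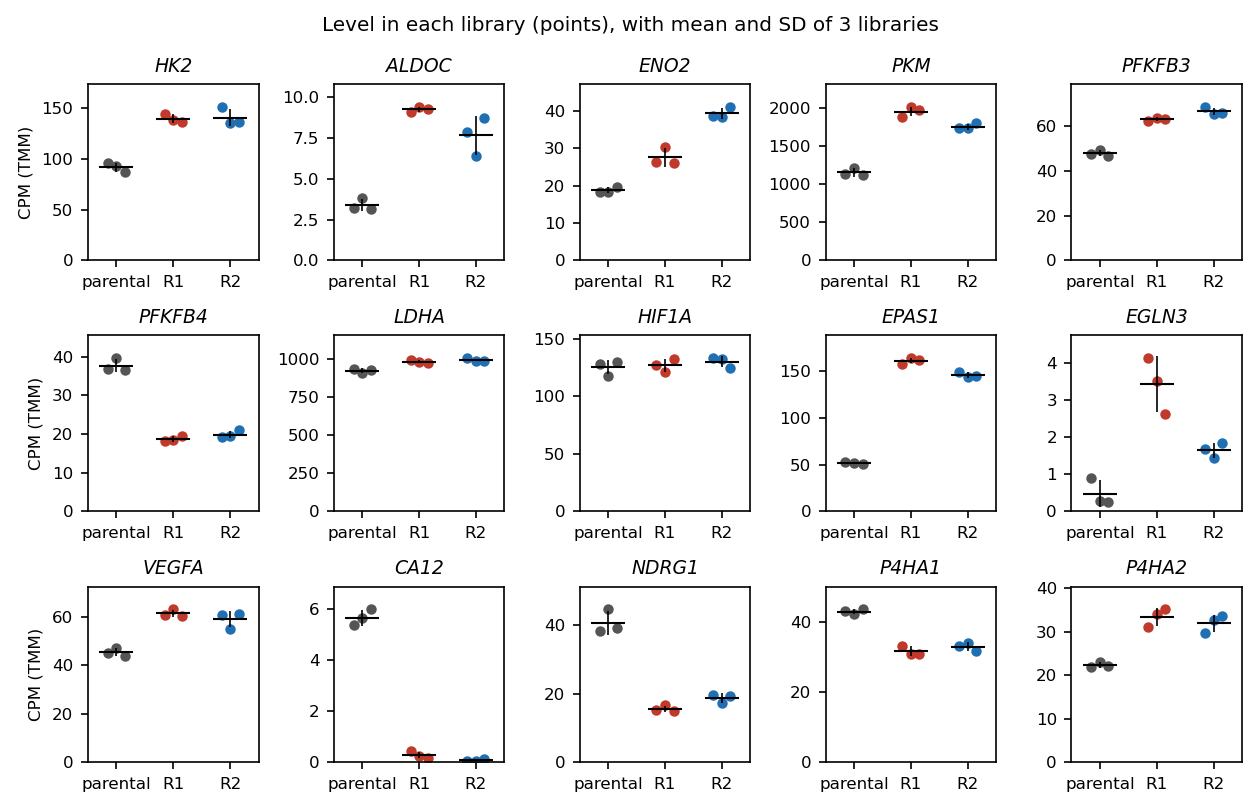
Level in CPM (y axis, from 0) of 15 of the genes in each library of the 3 lines, with the mean and SD of the 3 libraries in black. PFKFB4, CA12, NDRG1 and P4HA1 are lower in all 6 resistant libraries, HIF1A overlaps between all lines, and EPAS1 separates at 50.8 to 53.2 CPM in LIM1215-parental against 144 to 164 CPM in the resistant lines.

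Among the enzymes that decide the fate of pyruvate, 1 of 4 was called in each resistant line. This is near the 27.3% and 23.8% of all genes tested that were called in LIM1215-R1 and LIM1215-R2. LDHA and LDHB, the subunits of the lactate dehydrogenase that interconverts pyruvate and lactate, stayed near their parental level. LDHA was at 935, 905 and 928 CPM in LIM1215-parental, 996, 978 and 977 CPM in LIM1215-R1 and 1004, 989 and 990 CPM in LIM1215-R2. All resistant values thus lay above the parental ones, but by a log2 fold change of only 0.09 (95% interval 0.02 to 0.16, adjusted p = 0.0366) and 0.11 (0.04 to 0.17, adjusted p = 0.0166). In the fit corrected for GC content and length it passed the threshold in both lines, with adjusted p of 0.000858 and 0.00045. LDHA also passed in LIM1215-R2, but not in LIM1215-R1, under DESeq2 (adjusted p = 0.00848) and under blocking by replicate (0.00635). Its share of the 2 subunits per kilobase was 37.8% ± 0.38, 38.1% ± 0.29 and 39.9% ± 0.13 (SD, n = 3). LDHB was at 866 to 954 CPM and was not called. Of the kinases that switch off pyruvate dehydrogenase, PDK1 overlapped between the lines at 10.8 to 13.9 CPM, and PDK3 rose from 13.8, 14.9 and 12.5 CPM to 25.0, 22.0 and 23.3 CPM in LIM1215-R1 and 27.4, 23.0 and 23.5 CPM in LIM1215-R2. The log2 fold changes of PDK3 were 0.78 ± 0.095 (adjusted p = 1.67e-07) and 0.85 ± 0.095 (adjusted p = 3.13e-08).

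The HIF alpha subunits differed from each other. HIF1A was at 118 to 130 CPM in LIM1215-parental, 121 to 132 in LIM1215-R1 and 125 to 133 in LIM1215-R2, with 95% intervals of the log2 fold change of -0.09 to 0.12 and -0.05 to 0.16. EPAS1 (chr2:46297407-46386697), which encodes HIF-2 alpha, was at 53.2, 52.0 and 50.8 CPM in LIM1215-parental, 158, 164 and 162 CPM in LIM1215-R1 and 149, 144 and 144.5 CPM in LIM1215-R2. Its 6 resistant values lay far above the parental range, with log2 fold changes of 1.63 ± 0.051 (adjusted p = 1.63e-19) and 1.49 ± 0.051 (adjusted p = 9.99e-19). The second value lay just under the DEG limit. Per kilobase, EPAS1 made up 24.1% ± 1.1 (SD, n = 3) of the reads of the pair in the parental libraries, 49.3% ± 1.4 in LIM1215-R1 and 46.2% ± 0.83 in LIM1215-R2. These are RNA levels, whereas HIF alpha is chiefly regulated through the stability of the protein.

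EGLN1, the main oxygen-sensing prolyl hydroxylase of HIF, was at 71.8 to 84.3 CPM over all libraries and was called in neither line (95% intervals -0.17 to 0.07 and -0.16 to 0.08). EGLN3, a prolyl hydroxylase that is itself a HIF target, was low in LIM1215-parental at 0.885, 0.289 and 0.263 CPM and reached 4.11, 3.51 and 2.63 CPM in LIM1215-R1 and 1.67, 1.42 and 1.83 CPM in LIM1215-R2. The lines did not overlap, although parental replicate 1 stood above the other parental libraries. In counts, these were 24, 165 and 79 per line, and the log2 fold changes were 2.81 ± 0.32 (adjusted p = 6.99e-08) and 1.75 ± 0.37 (adjusted p = 0.000411). Without parental replicate 1 they were 3.61 and 2.55. EGLN3 remained at most 7.89% of the reads per kilobase of the pair in any library.

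**Figure D3:**
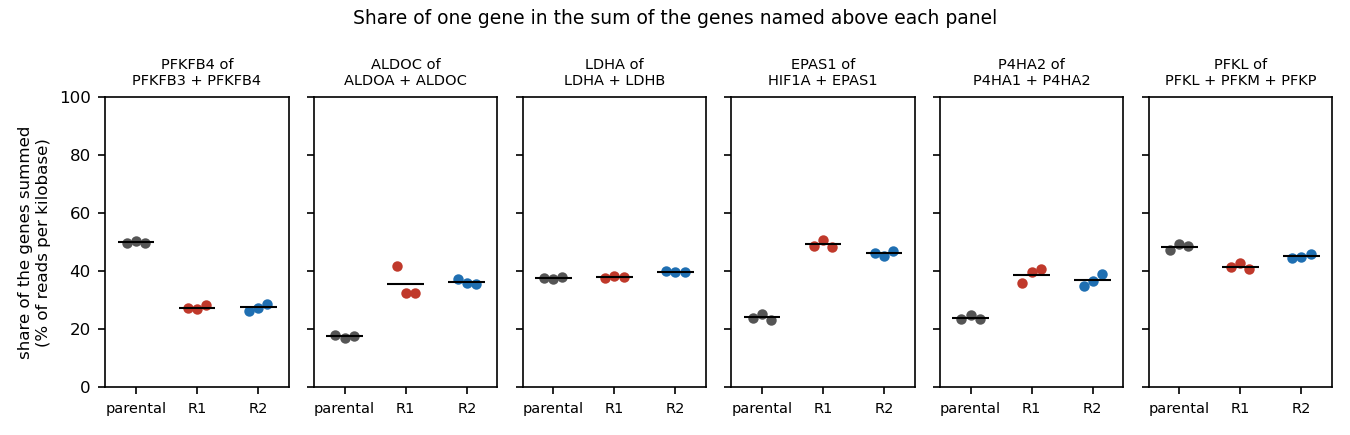
Share of 1 gene in the summed reads per kilobase of the genes named above each panel, other members of these families not included (y axis, percent) in each library, with the mean as a line. PFKFB4 falls from 50% to 27.5% and 27.6%, EPAS1 rises from 24.1% to 49.3% and 46.2%, and LDHA stays between 37.4% and 40.0%; the ALDOC share rests on the uncertain ALDOA count.

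The 11 hypoxia response genes did not move in one direction. In LIM1215-R1, 3 rose and 4 fell, and in LIM1215-R2, 2 rose and 4 fell, with median log2 fold changes of 0.001 and 0.06. Of all genes tested, 14% were higher and 13.4% lower in LIM1215-R1, and 12.3% and 11.6% in LIM1215-R2. Among the 11, the genes that rose in both lines were VEGFA, the growth factor of blood vessels, and P4HA2, a collagen prolyl 4-hydroxylase. VEGFA was at 45.1, 47.2 and 43.96 CPM in LIM1215-parental, 60.8, 63.0 and 60.3 CPM in LIM1215-R1 and 60.6, 55.1 and 61.3 CPM in LIM1215-R2. It rose by 0.44 ± 0.062 (adjusted p = 2.16e-06) and 0.38 ± 0.062 (adjusted p = 1.84e-05). ADM, the vasodilator peptide adrenomedullin, was at 0.578 to 0.893 CPM in LIM1215-parental, 1.44 to 1.90 CPM in LIM1215-R1 and 1.07 to 1.502 CPM in LIM1215-R2. It rose in LIM1215-R1 (1.26 ± 0.31, adjusted p = 0.00167) but not past the threshold without parental replicate 1 (adjusted p = 0.0111), and was not called in LIM1215-R2 (0.83 ± 0.32, adjusted p = 0.0498).

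CA12 fell the most. This membrane carbonic anhydrase, which hydrates carbon dioxide outside the cell, was at 5.37, 5.63 and 5.99 CPM in LIM1215-parental, 0.429, 0.251 and 0.188 CPM in LIM1215-R1 and 0.0595, 0.0619 and 0.131 CPM in LIM1215-R2. In counts, 283 in the parental libraries stood against 14 in LIM1215-R1 and 4 in LIM1215-R2. Its level was 19.6 times lower in LIM1215-R1 (95% counting interval 11.5 to 36.2, adjusted p = 1.19e-12) and 68.5 times lower in LIM1215-R2 (26.5 to 253, adjusted p = 1.14e-13). CA9, the related enzyme that is widely used as a marker of hypoxia, had no count in the parental libraries, 2, 5 and 0 in those of LIM1215-R1 and 0, 5 and 0 in those of LIM1215-R2. The value of LIM1215-R2 thus rests on replicate 2 alone, without which the count is 0. Set against a floor of 3 counts over the parental group, the CA9 levels of the resistant lines were 2.41-fold and 1.72-fold higher. These ratios leave out the counting error of the few resistant counts and are no lower bounds. CA9 was not called (adjusted p = 0.0764 and 0.146).

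Of the intracellular response genes, NDRG1, a stress-induced gene and a common readout of HIF, fell from 38.1, 44.5 and 39.2 CPM to 15.3, 16.6 and 14.8 CPM in LIM1215-R1 and 19.6, 17.2 and 19.4 CPM in LIM1215-R2. The log2 fold changes were -1.38 ± 0.085 (adjusted p = 3.25e-13) and -1.11 ± 0.083 (adjusted p = 1.66e-11). P4HA1 and P4HA2, alternative catalytic subunits of one enzyme, moved in opposite directions. P4HA1 was at 43.0, 42.1 and 43.5 CPM in LIM1215-parental and at 30.8 to 34.1 CPM in the resistant lines (log2 fold change -0.44 and -0.38, adjusted p = 7.3e-06 and 5.31e-05). P4HA2 was at 22.0, 23.1 and 22.1 CPM in LIM1215-parental and at 29.8 to 35.1 CPM in the resistant lines (0.58 and 0.51, adjusted p = 9.33e-07 and 5.97e-06). The P4HA2 share per kilobase went from 24.0% ± 0.80 (SD, n = 3) to 38.9% ± 2.5 and 36.9% ± 2.0.

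Of the mitophagy receptors, BNIP3 was called in neither line and BNIP3L fell in LIM1215-R2. The histone demethylase KDM3A fell in LIM1215-R1. BNIP3 overlapped between all lines at 47.6 to 56.1 CPM (95% intervals -0.13 to 0.13 and -0.07 to 0.19). BNIP3L was at 22.4 to 24.4 CPM in LIM1215-parental, 18.3 to 20.8 in LIM1215-R1 and 17.4 to 19.5 in LIM1215-R2, which was called lower in LIM1215-R2 only (-0.33, adjusted p = 0.0034; -0.25, adjusted p = 0.0215 in LIM1215-R1). That call was lost without parental replicates 2 or 3 or LIM1215-R2 replicate 3 (adjusted p up to 0.0251). With libraries scaled by total counts alone, BNIP3L was also called lower in LIM1215-R1 (-0.28, adjusted p = 0.00931). The difference of BNIP3L between the resistant lines did not pass the threshold (-0.08, adjusted p = 0.643). KDM3A was at 35.5 to 36.6 CPM in LIM1215-parental, 26.0 to 29.8 in LIM1215-R1 and 33.2 to 36.1 in LIM1215-R2, and fell in LIM1215-R1 (-0.34, adjusted p = 0.000573). ANKRD37, a small ankyrin repeat protein, was at 0.578 to 0.885 CPM in LIM1215-parental, 0.981 to 1.32 in LIM1215-R1 and 1.31 to 1.55 in LIM1215-R2. Every resistant library thus lay above the parental ones, but it was called in neither line (0.52, adjusted p = 0.231, and 0.91, adjusted p = 0.0218). Under the filter that asked each library for 10 counts or more, ANKRD37 was called higher in LIM1215-R2 (adjusted p = 0.0094).

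Related genes that are not among the 36 were counted in 6 lists, to be read beside the 14% higher and 13.4% lower among all genes tested in LIM1215-R1 and the 12.3% and 11.6% in LIM1215-R2. Of 12 tested transporters of glucose and lactate, 5 rose in LIM1215-R1 and 7 in LIM1215-R2, and none fell, with median log2 fold changes of 0.60 and 0.74. SLC2A1, which encodes GLUT1, rose from a mean of 408 CPM to 898.5 CPM in LIM1215-R1 (log2 fold change 1.14) and 714.5 CPM in LIM1215-R2 (0.81). SLC2A3, which encodes GLUT3 and may share reads with its near copy SLC2A14, rose by 2.77 and 2.24, SLC5A1, the sodium-coupled glucose transporter, by 3.15 and 3.34, and SLC2A12 by 1.02 and 0.95.

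Of 14 genes of gluconeogenesis and glycogen, 2 rose and 2 fell in LIM1215-R1, and 1 rose and 2 fell in LIM1215-R2, counts near those shares of all genes. PCK1, the first committed enzyme of gluconeogenesis, fell from 125 parental counts to 12 and 5 (log2 fold change -3.30 and -4.50, the second -5.17 without LIM1215-R2 replicate 2), and PGM1, which links glycogen to glycolysis, fell by 1.39 and 1.64. Among 18 other glycolysis genes, 3 rose and 4 fell in LIM1215-R1, and 5 rose and 4 fell in LIM1215-R2. PDP1, the phosphatase that reactivates pyruvate dehydrogenase, rose by 1.35 and 1.20, and PDK4, a kinase that opposes it, rose in LIM1215-R2 by 1.35 (0.20 and not called in LIM1215-R1). The 8 genes of the pentose phosphate pathway held 2 that rose and 1 that fell in LIM1215-R1 and 1 that fell in LIM1215-R2.

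Of 29 other hypoxia response genes, 9 rose and 7 fell in LIM1215-R1, and 8 rose and 8 fell in LIM1215-R2. GPRC5A, a membrane receptor, rose by 1.25 and 0.93, from a mean of 421 CPM to 999 and 803 CPM. HMOX1, which degrades haem, fell by 0.62 and 1.26. ANG, the ribonuclease angiogenin, had log2 fold changes of -1.07 and -1.60, of which the first was no longer called without any of the parental libraries, LIM1215-R1 replicates 1 or 2 or LIM1215-R2 replicate 1 (adjusted p up to 0.0516), or with DESeq2 (0.0238). LOXL2, a lysyl oxidase, had -1.22 in LIM1215-R1, and lost the call without parental replicate 1 (adjusted p = 0.0101) or LIM1215-R1 replicate 3 (0.0126) or with DESeq2 (0.0132). VLDLR, a lipoprotein receptor, and AK4, a mitochondrial adenylate kinase, had 6 and 2 parental counts. They reached 112 and 69 counts in LIM1215-R1 and 71 and 28 counts in LIM1215-R2. The ratio of CPM for AK4 was 35.7 (95% counting interval 9.5 to 300) in LIM1215-R1 and 14.5 (3.64 to 125) in LIM1215-R2. The fitted log2 fold change of AK4 in LIM1215-R1, 4.91, was 7.54 without parental replicate 1 and 4.31 without parental replicate 3, and that of VLDLR, 4.19, was 8.24 and 3.53. Among 11 other components of the HIF pathway, 3 rose and 3 fell in LIM1215-R1, and 1 rose and 1 fell in LIM1215-R2. ARNT2, a partner of the HIF alpha subunits, was higher in LIM1215-R1 (1.20, adjusted p = 0.0061), but not with DESeq2 (adjusted p = 0.023) or without any of the parental libraries or LIM1215-R1 replicates 1 or 2 (adjusted p up to 0.0298).

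Between the resistant lines, 6 of the 36 genes were called, 2 higher and 4 lower in LIM1215-R2, beside 7.16% of all genes tested (3.39% higher and 3.77% lower). None was a DEG, against 0.764% of all genes. The median log2 fold change was -0.06 for the 36 genes and -0.001 for all genes. GAPDH (-0.19 ± 0.037, adjusted p = 0.000827), PFKP (-0.19 ± 0.046, adjusted p = 0.00451) and PKM (-0.16 ± 0.037, adjusted p = 0.00473) were lower in LIM1215-R2, as was EGLN3 (-1.06 ± 0.26, adjusted p = 0.00599). ENO2 (0.51 ± 0.076, adjusted p = 2.47e-05) and KDM3A (0.28 ± 0.074, adjusted p = 0.00994) were higher. For each of these genes, the 3 libraries of one resistant line lay above the 3 of the other. The CA12 levels did not differ past the threshold (adjusted p = 0.0922), nor did those of EPAS1 (-0.14, adjusted p = 0.044).

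Of these 6 calls, ENO2 alone passed in every fit that left out 1 library. The count was 2 without LIM1215-R1 replicate 2, 3 without LIM1215-R1 replicate 3, 1 without LIM1215-R2 replicate 1, 1 without LIM1215-R2 replicate 2 and 3 without LIM1215-R2 replicate 3. EGLN3 did not pass with DESeq2 (adjusted p = 0.0151), nor did KDM3A (adjusted p = 0.0136). KDM3A was also lost with at least 10 counts in every library (0.0108) and with DESeq2's scaling in place of TMM (0.0112). The same held with only the 6 libraries of the comparison (0.0134) and without the 100 genes of highest count (0.0105). PFKP (adjusted p = 0.0107) and PKM (adjusted p = 0.0208) did not pass in the fit corrected for GC content and length. That fit also added calls, for PFKL (0.18, adjusted p = 9.39e-05), PGK1 (-0.15, adjusted p = 0.000682) and NDRG1 (0.32, adjusted p = 0.00514).

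**Figure D4:**
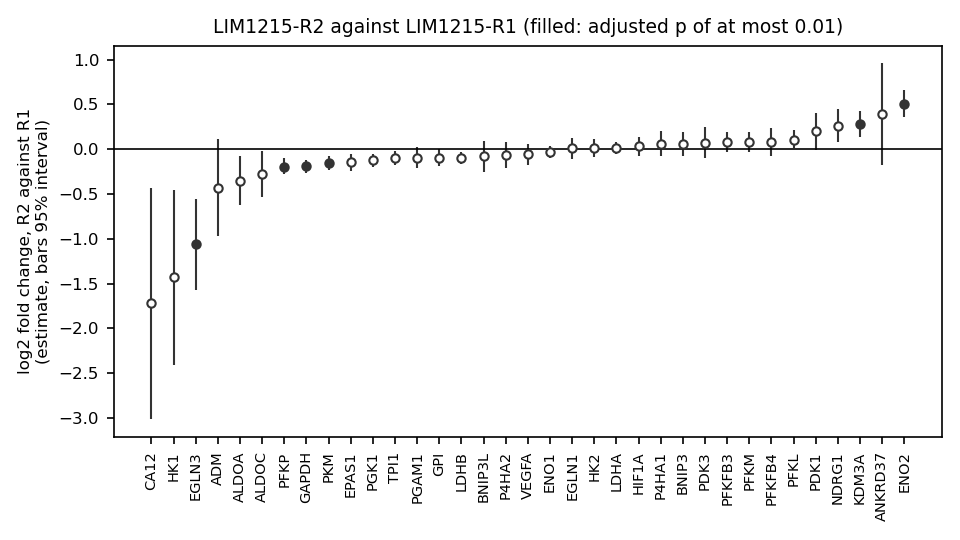
Log2 fold change of LIM1215-R2 against LIM1215-R1 (y axis) for 35 of the genes in order of value, with bars for the 95% interval and filled symbols for the 6 genes called. CA9 is left out. Most values lie near 0, and ENO2 is the highest at 0.51.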

How the data were processed

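The RNA of LIM1215-parental and of the resistant LIM1215-R1 and LIM1215-R2 was sequenced, with 3 libraries per line. Per the labels and the study's methods, the authors aligned reads to hg38 with STAR and counted them per gene with HTSeq 0.9.1, and the deposited values are raw counts without normalization. The gene annotation is not given in the sources used here. Totals were 13737416 to 18725014 counts per library, and 3 counts correspond to 0.158 to 0.217 CPM.

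Tests used edgeR 4.0.16 in R 4.3.3 (TMM scaling, glmQLFTest, 1 model over the 9 libraries, Benjamini-Hochberg adjustment over 19102 genes). The SE was derived from the test statistic. Intervals of ratios cover counting error only. Shares per kilobase used transcript lengths of GENCODE. DESeq2 1.42.0, other filters, scalings and thresholds, a replicate block, removal of GC and length trends, and each library left out were alternatives. On simulated counts, genes given a log2 change of 0.6 were called in 82% for LIM1215-R1 and 75% for LIM1215-R2, each set against parental over 18118 genes, and in 77% between the resistant lines over 18137 genes, and those given 2.5 in 99%, 99% and 100% in the same order. All 36 genes were named, and genes of the 6 lists when called against parental, changed by 1 or more on the log2 scale and at 1 CPM or more in the higher group; 1 gene under this rule is not reported here. The genes and lists were chosen with earlier results of these data known.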

Additional observations from a re-analysis of the deposited data

Results flagged for a closer look

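Of the 36 genes, 6 were picked out because their change against parental differed between the resistant lines, which is the direct test of LIM1215-R2 against LIM1215-R1. The log2 fold changes were -0.19 for PFKP, -0.19 for GAPDH, -0.16 for PKM, -1.06 for EGLN3, 0.51 for ENO2 and 0.28 for KDM3A. Each was measured in 3 libraries per line, and all but ENO2 lost the call when some single library was left out.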

How the results depend on the processing

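No gene of the 36 that was called changed direction under any alternative run. With a DEG limit of 1 on the log2 scale, the DEGs among the 36 numbered 8 in LIM1215-R1, 6 in LIM1215-R2 and 1 between the resistant lines. With at least 10 counts in every library, which kept 31 of the 36 genes, they numbered 1 in LIM1215-R1 and 0 in LIM1215-R2, and with DESeq2's lfcShrink 1 in LIM1215-R2. That setting also drew low counts towards 0, with log2 fold changes in LIM1215-R1 of 0.81 for HK1, 1.69 for EGLN3 and -2.77 for CA12. Without the 100 genes of highest count, which again left 31 of the 36, 3 were called between the resistant lines. Leaving out each library in turn gave 22 to 25 called genes and 4 to 5 DEGs in LIM1215-R1, 17 to 20 and 1 to 3 in LIM1215-R2, and 1 to 6 and 0 to 0 between the resistant lines.

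With the replicate number as a block, 25, 22 and 6 of the 36 genes were called in LIM1215-R1, LIM1215-R2 and between the resistant lines, and 5841, 5197 and 2044 of all genes, against 5222, 4554 and 1368 without it. The libraries share only a number: correlations of same-numbered deviations ran from -0.106 to 0.274, and not every library correlated best with its own number.

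Values of genes not called changed sign near 0. In the fit corrected for GC content and length, these were ALDOA (-0.058) and PDK1 (0.127) in LIM1215-R1, GPI (-0.001), PFKL (-0.063) and LDHB (0.022) in LIM1215-R2, and ENO1 (0.043) and HIF1A (-0.026) between the resistant lines. With total counts in place of TMM, they were HIF1A (-0.018) and BNIP3 (-0.034) in LIM1215-R1 and TPI1 (-0.002) in LIM1215-R2. Over the fits without 1 library, the values that changed sign ranged from -0.071 to 0.016 for PFKL, -0.122 to 0.031 for PDK1, -0.024 to 0.05 for HIF1A, -0.096 to 0.017 for EGLN1 and -0.049 to 0.044 for BNIP3 in LIM1215-R1. They ranged from -0.01 to 0.046 for TPI1 and -0.086 to 0.026 for EGLN1 in LIM1215-R2. Between the resistant lines, they ranged from -0.039 to 0.04 for HK2, -0.011 to 0.12 for PDK3, -0.023 to 0.041 for EGLN1, -1.018 to 0.116 for CA9, -0.113 to 0.011 for SLC2A12 and -1.055 to 0.042 for ANG. The cause was not tested. Genes under about 1 CPM, such as HK1, CA9 and CA12 in the resistant lines, are limited by depth.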
